A study of Mus musculus with 6 samples.

Results

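The genes described here are 7 transcriptional targets of bone morphogenetic protein (BMP) and TGF-beta signalling, namely Id1, Id2, Id3, Id4, Smad6, Smad7 and Smad9. They were taken by name from the platform annotation of the array, out of 19938 genes with a probe set of their own. Each of the 7 has 1 probe set that names no other gene, so that 1 value per array stands for each. Their transcripts were compared between 3 arrays of Bmi1-overexpressing neurospheres and 3 arrays of empty vector neurospheres. Neurospheres are floating colonies of neural stem/progenitor cells. Here the cells came from the wall of the lateral ventricle of outbred CD1 mice that were 4 to 6 weeks old. Test cells carried the pCMMP-Bmi1 retroviral vector and control cells the vector without insert. Both groups were sorted on eGFP, which the vector also encodes, and plated at clonal density (2000 cells in a well) in medium with B27, insulin, EGF and FGF. No BMP is named among the additives. The labels name unflagged Bmi1, whereas the study's text names the FLAG-tagged form for the arrays. The design text speaks of independent cultures but names no separate mice, so the p-values measure the spread between cultures.

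BMP ligands bind paired serine/threonine kinase receptors, which phosphorylate the receptor-regulated Smads. These enter the nucleus with the common partner Smad4 and switch on target genes, among which the Id genes are the best known. Id proteins are helix-loop-helix proteins without a DNA-binding region. They capture E proteins and so keep proneural and other basic helix-loop-helix (bHLH) factors from binding DNA, and in the lateral ventricle wall they are known for holding back neuronal differentiation and for keeping stem cells in their niche. Smad6 and Smad7 are inhibitory Smads that close a negative feedback loop, Smad6 mainly on BMP and Smad7 on both branches. Smad9 encodes a receptor-regulated Smad of the BMP branch (also called Smad8) whose transcript is itself raised by BMP.

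All values are on the log2 scale as deposited after robust multi-array average (RMA) processing, and differences are Bmi1 overexpression minus empty vector. A gene is said to have risen or fallen where its limma p, adjusted by Benjamini-Hochberg over 35557 probe sets, was under 0.05, and every adjusted p below comes from that test. Array medians lay between 4.37 and 4.45, and arrays of 1 group correlated at 0.991 to 0.993, arrays of different groups at 0.985 to 0.987. For all 6 arrays the source field contradicts the title, transduction and genotype fields, and the groups used here are those of the titles. The probe set of Bmi1 read 9.18, 8.36 and 8.42 in Bmi1-overexpressing neurospheres, against 7.70, 8.40 and 8.31 in empty vector neurospheres. The groups overlapped, and the difference of 0.52 was not past the threshold (adjusted p = 0.38). Bmi1 replicate 1 was high and empty vector replicate 1 low in their groups on this probe set, and values without them are given where they change a call below. With the groups of the titles, Cdkn2a, which encodes p16Ink4a and p19Arf and is repressed by BMI-1, fell by 1.08 (adjusted p = 0.0012). Its fall was known from earlier results of these arrays, so it is no independent check of the groups. As a check of cell identity, 12 neural stem cell markers averaged 9.07 to 9.24 on the Bmi1 arrays and 8.83 to 8.89 on the empty vector arrays. Of the 12, 3 rose (Prom1, Hes5 and Sox9) and none fell, where 2.98% of all genes rose and 4.37% fell. The other 9 did not pass, and Slc1a3, Egfr, Nes and Vim among them had differences of -0.31, -0.14, -0.05 and -0.02.

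The 4 Id genes changed in opposite directions. Id1 and Id3 fell in Bmi1-overexpressing neurospheres by 0.62 and 1.04, and Id2 and Id4 rose by 0.84 and 0.85. The 3 Smad genes did not pass the test, and their differences lay between -0.04 and 0.26. Of the 7 genes, 2 rose and 2 fell, where of all 19938 genes 2.98% rose and 4.37% fell. The median difference of the 7 was -0.04, against 0.01 over all genes, and their median size of change, 0.62, stood beside 0.11 over all genes. All genes include many dim ones, and only 16.5% (Id2) to 38.5% (Id4) of genes read brighter than an Id gene. When only the 15149 probe sets with a mean of at least 5 were tested, 1544 rose and 1880 fell. With all 35557 tested, 794 rose and 1231 fell.

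**Figure D1:**
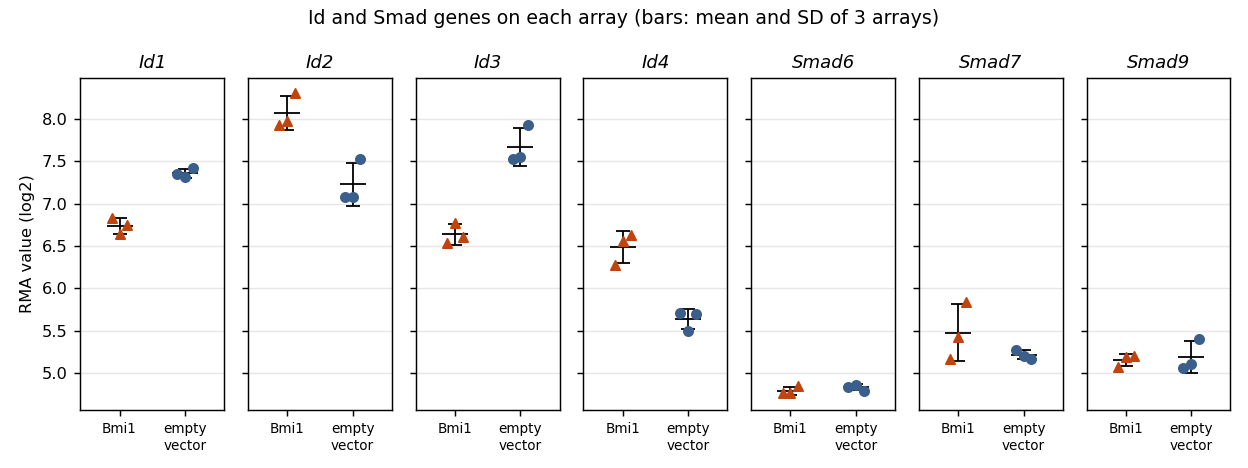
RMA values on the log2 scale (y axis) of the 7 genes, each point an array (triangles, Bmi1 overexpression, and circles, empty vector), with the mean and SD of each group as bars. All Bmi1 points of Id1 and Id3 lie below, and all those of Id2 and Id4 above, the empty vector points, and the groups overlap for Smad6, Smad7 and Smad9. Heights should not be compared between genes, since each probe set has its own response.

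Id1 (probe set 10477169, chromosome 2) read 6.83, 6.64 and 6.74 in Bmi1-overexpressing neurospheres, against 7.35, 7.31 and 7.41 in empty vector neurospheres. The highest Bmi1 array lay under the lowest empty vector array, and the gap of 0.48 between the groups was wider than the range within either (0.19 with Bmi1 and 0.11 with the empty vector). The mean was 6.74 ± 0.10 with Bmi1 and 7.36 ± 0.05 with the empty vector (SD, n = 3 each), a 1.54-fold fall. Its log2 difference was -0.62 (standard error 0.08, 95% confidence interval -0.81 to -0.43, adjusted p = 0.0080). Id1 is the Id gene most often used as a readout of BMP signalling.

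Id3 (probe set 10509163, chromosome 4), which often acts together with Id1, had the larger fall. It read 6.53, 6.77 and 6.61 in Bmi1-overexpressing neurospheres, against 7.53, 7.55 and 7.93 in empty vector neurospheres. The groups did not overlap and were 0.76 apart, while empty vector replicate 3 stood above the other arrays of its group. Means of 6.64 ± 0.12 with Bmi1 and 7.67 ± 0.23 with the empty vector (SD, n = 3 each) were 2.05-fold apart, and the log2 difference was -1.04 (standard error 0.13, 95% confidence interval -1.35 to -0.72, adjusted p = 0.0085). Of all genes, 0.777% had a lower difference than Id3 and 2.24% a lower one than Id1.

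Id2 (probe set 10399691, chromosome 12), known in neural progenitors as an inhibitor of neuronal and oligodendrocyte differentiation, read 7.93, 7.97 and 8.30 in Bmi1-overexpressing neurospheres, against 7.07, 7.08 and 7.52 in empty vector neurospheres. Every Bmi1 array lay above every empty vector array, and in both groups replicate 3 was the highest. The gap between the groups was 0.40, wider than the range of the Bmi1 arrays (0.37) and narrower than that of the empty vector arrays (0.45). The mean was 8.07 ± 0.20 with Bmi1 and 7.23 ± 0.26 with the empty vector (SD, n = 3 each), a 1.79-fold rise and a log2 difference of 0.84 (standard error 0.16, 95% confidence interval 0.45 to 1.23, adjusted p = 0.037).

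Id4 (probe set 10404975, chromosome 13) is known for keeping adult neural stem cells quiescent and for delaying oligodendrocyte differentiation. It read 6.27, 6.56 and 6.63 in Bmi1-overexpressing neurospheres, against 5.70, 5.50 and 5.70 in empty vector neurospheres. The groups were 0.57 apart, with Bmi1 replicate 1 the lowest of its group. Means of 6.49 ± 0.19 with Bmi1 and 5.63 ± 0.12 with the empty vector (SD, n = 3 each) made a 1.81-fold rise, with a log2 difference of 0.85 (standard error 0.12, 95% confidence interval 0.57 to 1.14, adjusted p = 0.012). Of all genes, 0.948% had a higher difference than Id4 and 0.993% a higher one than Id2.

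For each of the 4 Id genes the exact permutation test over the 6 arrays gave p = 0.1 (two-sided), the smallest that 3 arrays against 3 allow. Groups without overlap were frequent on these arrays, with 31.3% of all genes, 15.9% with Bmi1 lower and 15.3% with Bmi1 higher. The mean of the 4 Id values lay between 6.89 and 7.07 on the Bmi1 arrays and between 6.86 and 7.14 on the empty vector arrays, and these ranges overlapped. This mean of log2 values is not a total Id level, since each probe set has its own response. In bulk samples, fewer cells that express an Id gene and less of its RNA per cell cannot be told apart.

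**Figure D2:**
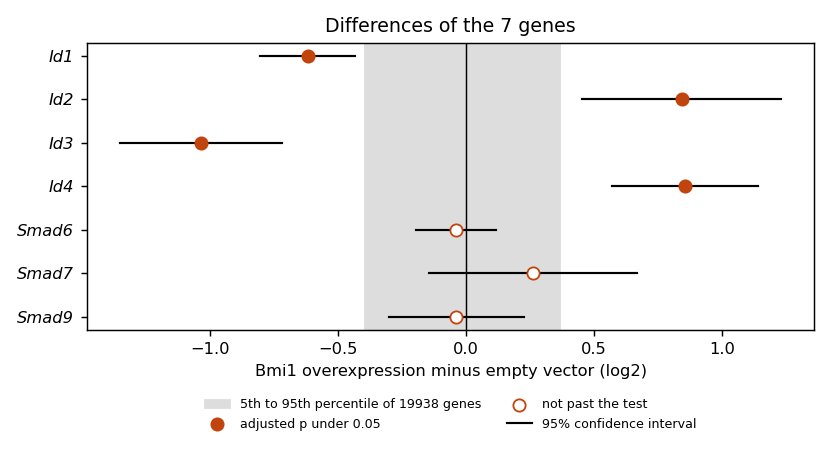
Log2 differences, Bmi1 overexpression minus empty vector (x axis), of the 7 genes (y axis), with 95% confidence intervals as lines. Filled points passed the test. The grey band holds the 5th to 95th percentile of the differences of 19938 genes, -0.40 to 0.36. The 4 Id genes lie outside the band, Id1 and Id3 to the left and Id2 and Id4 to the right, and the 3 Smad genes inside it.

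The calls differed in whether they held with an array left out. Calls became fewer over the whole array in every such fit. Between 332 and 455 probe sets rose and 642 to 820 fell, against 794 and 1231 with all arrays. A lost call alone therefore does not show that a gene leaned on the array left out. Id1 and Id3 passed with any 1 array left out (adjusted p up to 0.040 for both). The rise of Id4 no longer passed without Bmi1 replicate 2 (difference 0.82, adjusted p = 0.051). That of Id2 kept its direction in every such fit, with differences of 0.73 to 0.99, but passed only without empty vector replicate 3 (adjusted p = 0.029). In the other 5 fits, without Bmi1 replicate 1, 2 or 3 or empty vector replicate 1 or 2, its adjusted p was 0.081, 0.091, 0.094, 0.11 and 0.12. Centring the arrays on their medians also took Id2 to the other side of the threshold (difference 0.79, adjusted p = 0.050).

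**Figure D3:**
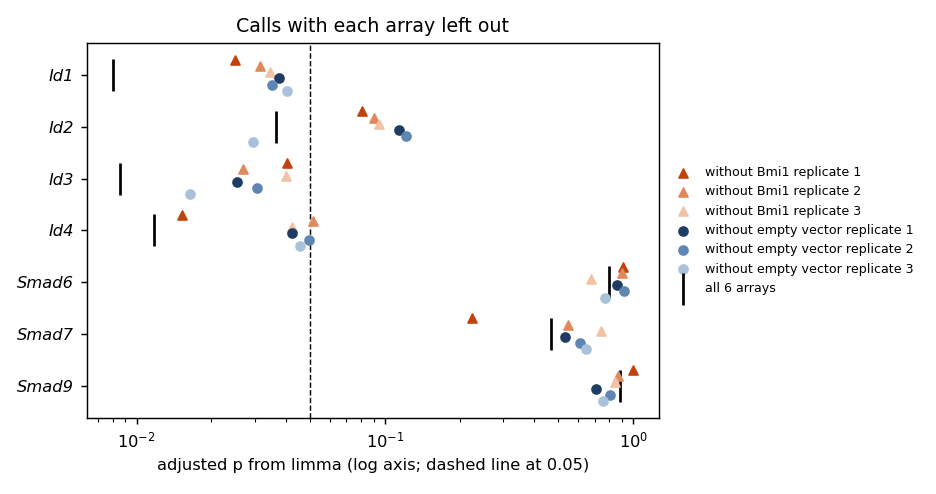
Adjusted p on a log axis (x axis) of the 7 genes (y axis), with all 6 arrays (vertical bars) and with each array left out in turn (triangles for a Bmi1 array left out, circles for an empty vector array). The dashed line marks 0.05. Id1 and Id3 stay left of the line in all 6 fits, Id4 in 5 and Id2 in 1, and the Smad genes lie right of it throughout.

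The sequences just upstream of the Id genes are shown for the members of the family that moved in opposite directions and have an entry in the RefSeq promoter table of GRCm38.p6, which holds Id2, Id3, Id4, Smad6 and Smad9. Each is the 250 bases before the annotated start, written 5′ to 3′ in lower case. Capitals mark GGCGCC, the GC-rich motif bound by Smads of the BMP branch (its own reverse complement), and CAGAC or its reverse complement GTCTG, which hold the Smad box. The shorter core AGAC or GTCT was not searched on its own and is not marked. Id2 lies at chr12:25096093-25096342 (minus strand), Id3 at chr4:136143572-136143821 (plus strand) and Id4 at chr13:48260866-48261115 (plus strand).
Id2: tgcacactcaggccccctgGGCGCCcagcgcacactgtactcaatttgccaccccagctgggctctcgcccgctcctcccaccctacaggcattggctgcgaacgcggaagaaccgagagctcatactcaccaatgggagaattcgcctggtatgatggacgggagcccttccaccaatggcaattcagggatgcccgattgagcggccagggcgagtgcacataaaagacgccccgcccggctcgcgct
Id3: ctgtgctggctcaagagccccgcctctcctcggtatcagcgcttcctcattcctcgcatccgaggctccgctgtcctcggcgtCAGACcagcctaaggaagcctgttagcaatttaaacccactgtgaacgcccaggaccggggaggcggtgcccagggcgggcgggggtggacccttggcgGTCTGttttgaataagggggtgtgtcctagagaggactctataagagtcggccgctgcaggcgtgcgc
Id4: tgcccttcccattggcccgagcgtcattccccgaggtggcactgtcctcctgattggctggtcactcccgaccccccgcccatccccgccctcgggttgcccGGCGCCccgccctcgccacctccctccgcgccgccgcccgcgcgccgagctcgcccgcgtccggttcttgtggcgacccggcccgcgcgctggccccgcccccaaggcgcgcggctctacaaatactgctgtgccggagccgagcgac
GGCGCC occurred 1 time each upstream of Id2 and Id4, starting 231 and 148 bases before the start site, and did not occur in the window of Id3. Smad9, which did not pass the test, also held GGCGCC, 51 bases before its start, and Smad6 held neither motif. Id1, which fell like Id3, and Smad7 had no promoter entry and could not be examined. Sites further upstream were not searched, and a link between either motif and the direction of change was not tested. In the window of Id3, CAGAC began 167 bases and GTCTG 68 bases before the start site. Among 32851 promoters of the same table, 9.59% held GGCGCC and 42.2% held CAGAC or GTCTG in this window. G and C made up 62.8%, 62.8% and 75.6% of the bases of Id2, Id3 and Id4. These are letter matches in a short window, and binding of any factor was not measured here.

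None of the 3 Smad members passed the test or separated the groups. Smad6 (probe set 10594418, chromosome 9), the inhibitor of BMP receptors and their Smads, read 4.76, 4.77 and 4.85 in Bmi1-overexpressing neurospheres, against 4.84, 4.86 and 4.79 in empty vector neurospheres. The groups overlapped, and the difference was -0.04 with a 95% confidence interval of -0.20 to 0.12 (adjusted p = 0.80), or 0.873 to 1.08 times the control level on this probe set. Smad9 (probe set 10492091, chromosome 3) read 5.07, 5.18 and 5.20 with Bmi1, against 5.06, 5.10 and 5.40 with the empty vector. Its difference of -0.04 (95% confidence interval -0.30 to 0.22, adjusted p = 0.89) turned to 0.07 without empty vector replicate 3, the highest of its group, and to 0.00246 without Bmi1 replicate 1.

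Smad7 (probe set 10456745, chromosome 18), the inhibitor shared by the TGF-beta and BMP branches, was the most variable of the 3. It read 5.17, 5.43 and 5.84 in Bmi1-overexpressing neurospheres, against 5.27, 5.21 and 5.17 in empty vector neurospheres. The Bmi1 arrays spread over 0.67 and the empty vector arrays over 0.10, with Bmi1 replicate 1 at the control level and the other 2 above it. The difference of 0.26 (95% confidence interval -0.14 to 0.67, adjusted p = 0.47) ran between 0.08 without Bmi1 replicate 3 and 0.42 without Bmi1 replicate 1, and passed in none of the fits. The upper end of its interval is a 1.59-fold rise. Of all genes, 53.7% read brighter than Smad6, 47.3% brighter than Smad7 and 49.3% brighter than Smad9, and without detection calls an unchanged value at such a level does not show that the transcript was unchanged.

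The position of the 7 genes in the pathway was described with 10 lists that hold 134 measured genes, ordered from ligand to target. Of these, 8 (5.97%) rose and 14 (10.4%) fell, while 112 did not pass, with a median difference of 0.03. Of all 19938 genes, 2.98% rose and 4.37% fell, and the counts of each list stand beside these shares, with no test of a list. Crim1, Tgfbr1, Sostdc1, Chrdl1, Twist1, Neurod1 and Cdkn2a were known from earlier results of these arrays when the lists were written, so their counts are no independent evidence.

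Among 21 ligand genes, 1 rose, 2 fell and 18 did not pass. Bmp2 and Gdf11 fell by 0.74 and 0.43, and Tgfb1 rose by 0.62 (adjusted p = 0.013, 0.042 and 0.034). Bmp2, a ligand that induces Id genes in neural progenitors, read 3.16, 2.96 and 3.02 with Bmi1, against 3.79, 3.63 and 3.95 with the empty vector, below the array medians in both groups. The call of Gdf11 was lost with any 1 array left out (adjusted p up to 0.14), that of Tgfb1 in all such fits but the one without empty vector replicate 1 (up to 0.12), and that of Bmp2 without Bmi1 replicate 2 or 3 or empty vector replicate 1 (up to 0.054).

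Of 16 receptor genes 3 fell, none rose and 13 did not pass, where 4.37% of all genes fell. Tgfbr1, the type I receptor for TGF-beta, fell to 5.11 ± 0.07 with Bmi1, against 7.06 ± 0.09 with the empty vector (SD, n = 3 each), a difference of -1.95 (adjusted p = 3.5e-04). Its type II partner Tgfbr2 fell by 0.82 (adjusted p = 0.0049). Bmpr2, a type II receptor for BMP, fell by 0.40 (adjusted p = 0.027), a call that was lost with any 1 array left out (adjusted p up to 0.10).

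Outside the cell, BMP is held back or presented by secreted and membrane proteins, and of 16 such genes 2 rose and 3 fell. Crim1, a membrane protein that binds BMPs, had a difference of -2.61, the antagonist Sostdc1 one of -1.89 and the BMP-binding Bmper one of -0.78, whereas the antagonist Chrdl1 rose by 1.06 (adjusted p from 2.4e-04 to 0.0036). These 4 calls held with any 1 array left out. Fstl1, a secreted glycoprotein that binds BMPs, rose by 0.35 (adjusted p = 0.042) and was not run under the alternatives. It was chosen after its value was seen, to complete the 5 calls.

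None of the 5 Smads that carry the signal passed the test. Smad3, of the TGF-beta branch, read 7.46, 7.54 and 7.72 with Bmi1, against 7.18, 7.06 and 7.24 with the empty vector. The groups of Smad3 did not overlap, as was so for 31.3% of all genes. Its difference of 0.41 (adjusted p = 0.064) and that of Smad5, of the BMP branch, of 0.33 (adjusted p = 0.11) missed the threshold. Both passed it when 1 probe set per gene or brighter probe sets alone were tested and with an intensity trend in the prior, and Smad3 also after quantile normalization (adjusted p = 0.046). Smad1, the other BMP-branch Smad, had a difference of -0.06 (95% confidence interval -0.23 to 0.12), Smad2 one of 0.05 (-0.16 to 0.25) that turned to -0.01 after median centring and without Bmi1 replicate 2, and the common partner Smad4 one of 0.12 (-0.04 to 0.28).

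Of 20 genes for nuclear regulators and turnover factors of Smads, 2 rose and 2 fell. Pmepa1, a TGF-beta target that restrains its receptor Smads, rose by 0.77 (adjusted p = 0.015). Tgif1, a corepressor of Smads, rose by 0.46, and Smurf1, a ubiquitin ligase for BMP-branch Smads, and the deubiquitinase gene Usp9x had differences of -0.31 and -0.46 (adjusted p = 0.049, 0.049 and 0.043). The calls of Tgif1, Smurf1 and Usp9x were lost with any 1 array left out (adjusted p up to 0.16), and that of Pmepa1 without empty vector replicate 1 or 3 (up to 0.060).

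The other target genes were read on lists of their own. Of 16 other BMP targets 1 rose, Dlx2, a homeobox gene of interneuron progenitors (difference 0.87, adjusted p = 0.048), and 15 did not pass, with a median difference of 0.03. Of 14 other TGF-beta targets 2 rose, Pmepa1 and the fibronectin gene Fn1 (0.70, adjusted p = 0.042), and 12 did not pass. With an array left out, Dlx2 passed only without empty vector replicate 3 and Fn1 only without Bmi1 replicate 3 (adjusted p otherwise up to 0.13).

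**Figure D4:**
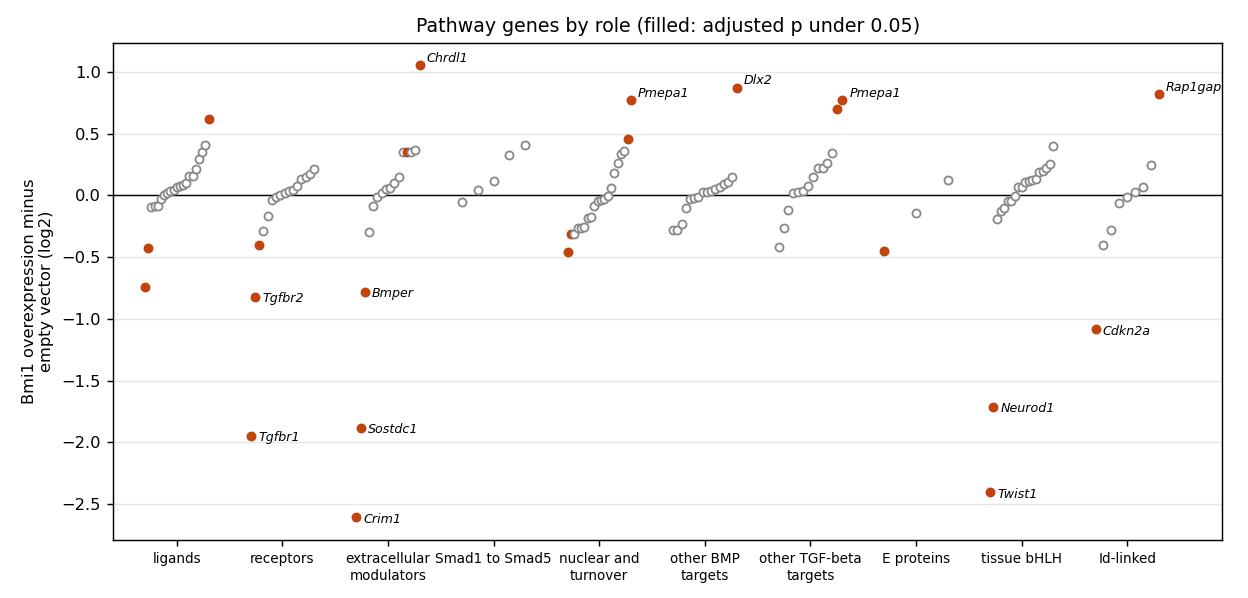
Log2 differences, Bmi1 overexpression minus empty vector (y axis), of 134 genes sorted by role (x axis), with filled points for adjusted p under 0.05 and names for called genes beyond 0.75 in size. Genes on 2 lists are drawn under both. Called receptors lie below 0, the 5 signal-carrying Smads between -0.06 and 0.41, and Rap1gap and Cdkn2a on opposite sides among genes linked to Id proteins.

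The partners of Id proteins were examined next. Of the 3 E protein genes, Tcf4 read 9.33, 9.42 and 9.50 in Bmi1-overexpressing neurospheres, against 9.84, 9.88 and 9.89 in empty vector neurospheres. It fell by 0.45 (adjusted p = 0.018), a call that passed only without Bmi1 replicate 3 when 1 array was left out (adjusted p otherwise up to 0.075). Tcf3 and Tcf12 had differences of 0.12 and -0.14 (adjusted p = 0.37 for both). The groups of neither gene overlapped, as was so for 31.3% of all genes. Of 19 tissue-restricted bHLH genes, which dimerize with E proteins, none rose and 2 fell, where 2.98% of all genes rose and 4.37% fell. Both were known from earlier results of these arrays. The mesenchymal factor Twist1 had a difference of -2.40 and the neuronal factor Neurod1 one of -1.71 (adjusted p = 0.0054 and 0.0078), and both passed with any 1 array left out, while Neurod1 did not pass the methods' t-test after Benjamini-Hochberg adjustment (adjusted p = 0.057). Neurod1 read 2.42 ± 0.13 with Bmi1 and 4.14 ± 0.42 with the empty vector (SD, n = 3 each), below the array medians in both groups.

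Of 9 genes linked to Id function, Rap1gap rose, Cdkn2a fell and 7 did not pass. Rap1gap encodes a GTPase-activating protein for Rap1 that Id proteins are known to repress in neural stem cells, through which they act on adhesion to the niche. It read 7.76, 7.63 and 7.68 in Bmi1-overexpressing neurospheres, against 6.79, 6.86 and 6.97 in empty vector neurospheres. The groups were far apart relative to their spread, with means of 7.69 ± 0.06 with Bmi1 and 6.87 ± 0.09 with the empty vector (SD, n = 3 each) and a difference of 0.82 (standard error 0.08, adjusted p = 0.0031). Rap1gap was called with any 1 array left out, with adjusted p between 0.010 and 0.022.

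Markers of other cells were read beside the Id genes, since astrocytes, endothelial cells and pericytes also express them. None of the 8 endothelial, 8 microglial and 8 ependymal markers passed the test, where 2.98% of all genes rose and 4.37% fell. Endothelial markers averaged 3.86 to 3.88 on the Bmi1 arrays and 3.82 to 3.85 on the empty vector arrays, and microglial markers 3.36 to 3.37 with Bmi1 and 3.31 to 3.45 with the empty vector, all below the array medians. RMA values have no true zero, so absence cannot be read from them. Of 10 pericyte and fibroblast markers Acta2 fell by 1.34 (adjusted p = 0.023) and the other 9 did not pass. Differences on this list ran up to 0.38, with a median of 0.06. The pericyte and fibroblast list averaged 4.43 to 4.59 with Bmi1 and 4.53 to 4.58 with the empty vector. Of 10 astrocyte markers, the connexin gene Gja1 and the water channel gene Aqp4 rose by 0.76 and 1.06 (adjusted p = 0.0043 and 0.017). The other 8 did not pass, and S100b, Aldoc and Gjb6 among them had differences of -0.38, -0.28 and -0.08. The list averaged 7.19 to 7.41 with Bmi1 and 6.92 to 7.09 with the empty vector. With an array left out, Acta2 passed only without Bmi1 replicate 3 or empty vector replicate 2, and Aqp4 only without Bmi1 replicate 1 or empty vector replicate 3 (adjusted p otherwise up to 0.089 and 0.067). The part of these cell types in the Id differences was not tested.

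The genes whose values followed an Id gene most closely over the 6 arrays were found among 10222 other genes with a mean of at least 5. They were Cs, Tpp1 and Mcu for Id1 (Pearson's r from 0.998 to 0.999), Etv1, Spty2d1 and Fbxo25 for Id3 (0.998 to 0.999), Lypla2, Tmem151b and Ltbp3 for Id4 (0.997 to 0.9996) and Tgif1, Ehbp1 and Spire1 for Id2 (0.992 to 0.999). Tgif1 is the Smad corepressor named above and Ltbp3 a binding protein of latent TGF-beta. A correlation over 6 arrays in 2 groups mixes the group difference with the deviations within groups. For the genes named, which were picked as the closest, deviations from the group means also correlated (r from 0.943 to 0.998). Over the 6 arrays, 546 to 1271 genes reached an r above 0.9 with 1 or another of the 4. These correlations are a description of these arrays alone.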

How the data were processed

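The arrays were Affymetrix Mouse Gene ST 1.0, each given 300 ng of total RNA from 1 of the 6 neurosphere cultures. Per the labels, the authors deposited log2 values per probe set, made by RMA in Affymetrix Expression Console (background correction, normalization between arrays, summary of probes). No source used here gives versions, library file or probe set build, and there are no detection calls. Genes were named from the platform annotation (1 gene for 21789 of 35557 probe sets), taking the brightest probe set of a gene. Groups followed the titles and were compared by limma 3.58.1 (R 4.3.3, lmFit with eBayes, two-sided), without filter or block, after a check on simulated data. The number of arrays limits the precision. Alternatives were the methods' t-test (p under 0.001, log2 difference of 1 or more), filters at a mean of 5 or 6, other normalizations and priors, array weights, 1 probe set per gene, the replicate block and each array left out. Members and lists were chosen with earlier results of these data known. Named genes were the 7 members, Bmi1, Smad1 to Smad5, the E proteins, up to 4 called genes per list by adjusted p, and the 3 genes most correlated with each called member. Fstl1 and the stem cell and astrocyte markers with differences below 0 were added after their values were seen. These additions and the correlated genes other than Tgif1 were not run under the alternatives. Some genes of the lists are not reported here. Promoters are from RefSeq (GRCm38.p6), trimmed to the 250 bases before the start. Figures were drawn with matplotlib 3.10.9.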

Additional observations from a re-analysis of the deposited data

How the results depend on the processing

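The differences of Id1 and Id3 were below 0 and those of Id2 and Id4 above 0 under every setting run. With the methods' t-test at their thresholds 0 of the 7 genes rose and 0 fell (differences -0.62, 0.84, -1.04 and 0.85 for Id1 to Id4), and 100 probe sets rose and 200 fell, against 794 and 1231 with limma. After Benjamini-Hochberg adjustment of that t-test, 0 rose and 1 fell, Id1, while Id2 (0.84, adjusted p = 0.12), Id3 (-1.04, adjusted p = 0.053) and Id4 (0.85, adjusted p = 0.058) did not pass, and 492 probe sets rose. Median centring left 1 rise among the 7 (Id4, with Id2 at 0.79 and an adjusted p of 0.050 from limma) and gave 593 probe sets that rose and 1467 that fell. With a mean of at least 5 or 6, fewer probe sets were tested (15149 and 11487). Those that rose were 1544 and 1346 and those that fell 1880 and 1847, and with an intensity trend 1364 rose. Smad6 was too dim for both filters and Smad7 and Smad9 for the one at 6, so they were not tested there. Replicate numbers did not pair the arrays (correlations of deviations for equal numbers from -0.03 to 0.00, and no array correlated best with its own number). The fit with the replicate block gave 1 rise (Id2, with Id4 at 0.85 and an adjusted p of 0.056 from limma) and 306 probe sets that rose and 544 that fell. With each array left out, 0 to 2 of the 7 rose and 2 fell, 332 to 455 probe sets rose and 642 to 820 fell, and the differences were -0.67 to -0.57 (Id1), 0.73 to 0.99 (Id2), -1.11 to -0.91 (Id3), 0.78 to 0.96 (Id4), -0.07 to -0.02 (Smad6), 0.08 to 0.42 (Smad7) and -0.10 to 0.07 (Smad9, which turned to 0.00246 and 0.0674). Of the pathway genes 8 rose and 14 fell. These were 1 and 4 by the methods' t-test, 2 rises after its adjustment, 13 rises at a mean of at least 5, 5 after median centring, 14 with 1 probe set per gene, 3 rises and 9 falls with the block, and 3 to 4 rises and 8 to 9 falls with an array left out. Smad2 turned to -0.00716 after median centring and ran from -0.00744 to 0.103 with an array left out. For 35 other named genes, and apart from arrays left out, 309 values kept their sign and side of the threshold, 54 no longer passed, 9 newly passed and 1 turned. Hes5 did not pass the methods' t-test after adjustment (adjusted p = 0.058) or the block (0.068), nor Sox9 the block (0.050) or Neurod1 the adjusted t-test (0.057). Causes were not tested. A mean over several probe sets per gene could not be run, since each of the 7 has 1.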

Other observations

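Empty vector replicate 3 was the highest array of its group for Id1, Id2, Id3 and Smad9 (7.41, 7.52, 7.93 and 5.40). Without it the differences were -0.59, 0.99, -0.91 and 0.07. Deviations from the group means ran together for Id3 and Smad9 (r = 0.94) and for Id2 and Smad9 (0.88) over the 6 arrays, the highest of 21 pairs of the 7 genes, and for Id1 and Id3, which both fell, r was -0.015. These are descriptions of 6 arrays, and no test was made of them.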
